A study of Mus musculus with 2 samples.

Results

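The calcitonin gene-related peptide (CGRP) and adrenomedullin system was examined in mouse dorsolateral prostate through 8 genes, taken as the receptor subunits Ramp1, Ramp2 and Ramp3, the receptor Calcrl, the receptor component Crcp and the ligand genes Adm, Calca and Calcb. They are 8 of the 18952 genes named on the array, and every probe whose transcript accession maps to them was included, 11 of 41174 probes. The set was chosen by the measured ratio of Ramp1, which was higher in the transgenic pool, so that ratio is given as a description. The ratios of the other members come from the same comparison. In the RefSeq table Ramp1 lies on chromosome 1, Calcrl on 2, Crcp on 5, Adm, Calca and Calcb on 7, and Ramp2 and Ramp3 on 11. A pool of RNA from 6 transgenic FVB/N mice carrying ARR2PB-miR32 was compared with a pool of RNA from 6 wild type FVB/N mice, all at 6 months of age. The transgene is driven by ARR2PB, a probasin-derived promoter with androgen-responsive activity in the epithelium of the prostate. The same 2 pools were put on both arrays of a slide. The transgenic pool was labelled with Cy3 on array 1, and with Cy5 on array 2. There was 1 pool per genotype and the arrays are technical repeats, so no test of genotype was possible. Errors given as ± are SDs over the 2 arrays.

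Receptor activity-modifying proteins (RAMPs) are small single-pass membrane proteins that carry the calcitonin receptor-like receptor, the product of Calcrl, to the cell surface and set which peptide it binds. With RAMP1 it is the receptor for CGRP, a vasodilator released by sensory nerves, and with RAMP2 or RAMP3 it is a receptor for adrenomedullin, a peptide of vessel walls and endothelium. Both receptors act mainly through the stimulatory G protein, adenylyl cyclase and cAMP.

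The transgene carries miR-32. The mature mouse sequence of its 5p arm is shown with its seed, bases 2 to 8, in capitals, from RefSeq on GRCm38.p6 (chr4:56895272-56895293, minus strand).
mmu-miR-32-5p: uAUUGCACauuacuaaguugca
Promoter windows of 300 bases were found in the RefSeq table for 5 of the 8 members, and the other 3 are Ramp2, Crcp and Calcb. The windows of Ramp1 and Calcrl are shown because their products form the CGRP receptor and their ratios differed most from each other among the detected members. Capitals mark matches, on either strand, to AGAACA (a core of androgen receptor sites) and TGACG (a core of the cAMP response element).
Ramp1, chr1:91179572-91179871, plus strand: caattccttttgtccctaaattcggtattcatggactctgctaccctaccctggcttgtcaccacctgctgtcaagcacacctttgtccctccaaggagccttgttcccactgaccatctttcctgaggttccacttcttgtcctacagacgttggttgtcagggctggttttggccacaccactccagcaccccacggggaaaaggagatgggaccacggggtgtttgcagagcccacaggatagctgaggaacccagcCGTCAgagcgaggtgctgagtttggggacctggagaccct
Calcrl, chr2:84425217-84425516, minus strand: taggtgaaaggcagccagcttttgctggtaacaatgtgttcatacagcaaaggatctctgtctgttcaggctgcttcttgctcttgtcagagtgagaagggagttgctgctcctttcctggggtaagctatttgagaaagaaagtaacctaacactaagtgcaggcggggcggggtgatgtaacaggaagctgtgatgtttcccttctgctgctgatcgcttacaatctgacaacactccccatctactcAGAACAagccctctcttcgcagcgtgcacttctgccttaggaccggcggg
The Ramp1 window held a single TGACG match, at 11 from the annotated start, and the Calcrl window held AGAACA at 1. Of the 5 member windows, 2 held TGACG and 1 held AGAACA, and these motifs occurred in 20.8% and 19.0% of all 32851 promoter windows of that length. The full element TGACGTCA, which contains TGACG, was in 0 of the 5 and in 1.79% of all windows. The matches describe the letters of these windows and say nothing of binding.

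The share of spots clearly above background differed more by dye than by pool. The median net signal did not differ by dye in the same way in both pools. It was 22.5 (Cy3) and 10 (Cy5) for the transgenic pool on arrays 1 and 2, against 26 (Cy5) and 26.5 (Cy3) for the wild type pool. For the transgenic pool 58.3% (Cy3) and 21.1% (Cy5) of spots exceeded background clearly on arrays 1 and 2, against 42.1% (Cy5) and 57.0% (Cy3) for the wild type pool. A probe was taken as detected when at least 1 pool was well above background on both arrays, and a gene took its brightest detected probe. By this rule 10434 genes were detected, 10424 of them through the wild type pool and 6056 through the transgenic pool. The remaining genes had a transgenic reading not well above background on at least 1 array. Of the 8 members, 5 were detected (Ramp1, Ramp2, Calcrl, Crcp and Adm), each through 1 probe, and Ramp3, Calca and Calcb were not. All ratios are log2 of transgenic over wild type after background correction with an offset of 50 and loess normalization. The offset pulls the ratios of dim probes toward 0.

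**Figure D1:**
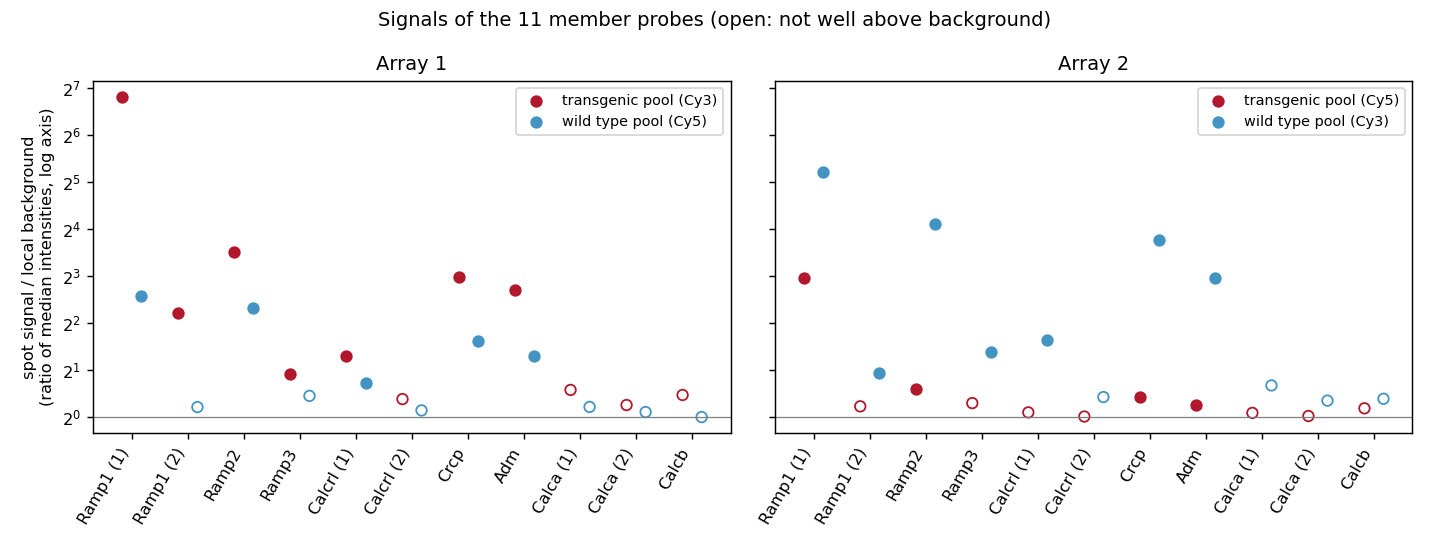
Median spot signal over local background (ratio, log axis) of the 11 member probes on array 1 (left) and array 2 (right), before normalization, with the transgenic pool in red and the wild type pool in blue. Filled points are well above background and open points are not. On array 1 the brighter Ramp1 probe stood highest in the transgenic pool, where its spot read 3039 over a background of 27, and the Calca and Calcb probes lay near their background in both pools.

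Ramp1, which sorts the receptor toward CGRP, was 4.48-fold higher in the transgenic pool by its brighter probe, A_51_P348665. On array 1 the spot read 3039 in the transgenic pool over a local background of 27, against 753 over 126 in the wild type pool. On array 2 it read 937 over 121 in the transgenic pool, against 1085 over 29 in the wild type pool. The raw spot was therefore higher in the transgenic pool on array 1 and lower on array 2, where the transgenic pool was in the weak Cy5 channel. The net signal of the transgenic pool over that of the wild type pool was 4.80 on array 1 and 0.773 on array 2, against a median over detected genes of 0.784 and 0.178. The raw net ratio of Ramp1 ranked 5 of 10433 genes on array 1 and 57 of 10025 genes on array 2, counted from the highest. After normalization the log2 ratio was 2.50 on array 1 and 1.83 on array 2, with a mean of 2.16 ± 0.47. On a per-pool scale made comparable across arrays, its log2 level was 11.4 and 11.3 in the transgenic pool on arrays 1 and 2, against 8.86 and 9.46 in the wild type pool. On this scale the readings of the transgenic pool differed less between arrays than those of the wild type pool.

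The second Ramp1 probe, A_52_P172014, was much dimmer and was not detected by the rule, since each pool was well above background only in its Cy3 reading. On array 1 it read 129 over 28 in the transgenic pool, against 146 over 127 in the wild type pool, and on array 2 it read 154 over 132.5 in the transgenic pool, against 56 over 29.5 in the wild type pool. Its log2 ratio was 1.13 and 0.36 on arrays 1 and 2, a mean of 0.74 ± 0.54. On each array 1 side of this ratio was not well above background, so it is no support for the ratio of the brighter probe. By the log ratio of the scanner software, to which no offset was added here, the bright probe had 2.29 and 2.22 on arrays 1 and 2. The dim probe averaged 2.10 ± 1.27 on that scale, far apart on the arrays, with the same limit.

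A gene was called when its ratio reached 1.5-fold the same way on both arrays. Of the 5 detected members, 1 was higher (Ramp1), 0 lower and 4 neither. Among all 10434 detected genes, 0.910% were higher and 1.30% lower by this rule, and 2.21% were called in either direction. Since Ramp1 was chosen for its ratio, the count of 1 carries no weight against that background. Ramp1 ranked 2 among detected genes by mean ratio, 2 on array 1 alone and 16 on array 2 alone. The genome-wide split of 95 higher to 136 lower moved with the processing, to 247 and 628 by scanner log ratio and 2 and 554 with median centring. It was 178 and 119 in the authors' deposited table, which holds the scanner ratios for only 6127 of these genes.

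Median centring ended the call of Ramp1. Its log2 ratio then was 2.45 on array 1 and 0.08 on array 2, a mean of 1.26. This scaling moved the median of all detected genes to -0.57 (-0.05 and -1.09 on arrays 1 and 2), and relative to that median Ramp1 was 1.83 higher on average and 2.50 and 1.17 higher on arrays 1 and 2. By mean ratio it ranked 3 under median centring, 11 by scanner log ratio and 8 of 6127 genes in the deposited table. In the same order it ranked 2, 5 and 3 on array 1 alone, but 206, 182 and 168 on array 2 alone.

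**Figure D2:**
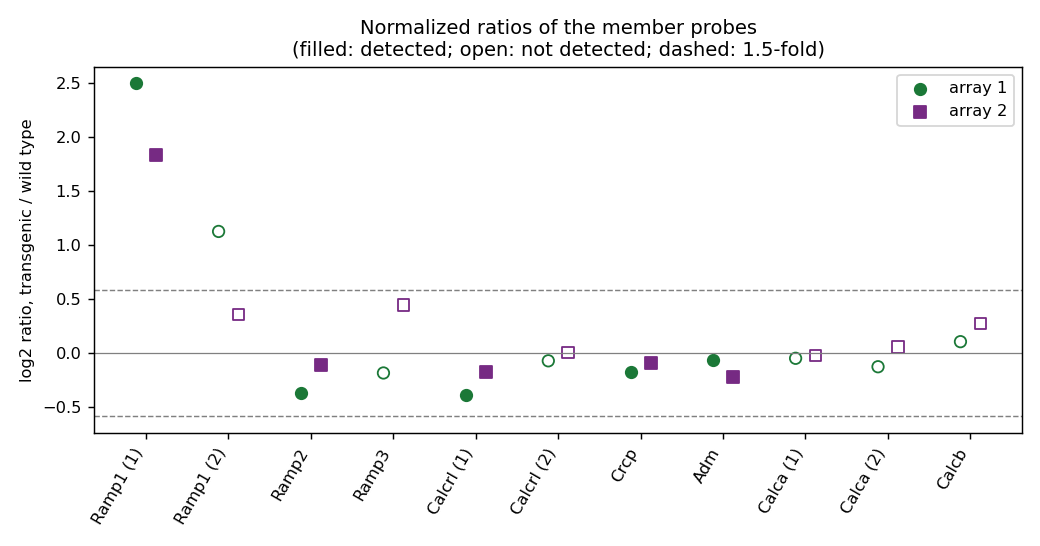
Normalized log2 ratio, transgenic over wild type, of each member probe on array 1 (green circles) and array 2 (purple squares). Filled symbols are detected probes, open symbols are not, and dashed lines mark 1.5-fold. Only the brighter Ramp1 probe, at 2.50 and 1.83, lay beyond the upper line on both arrays, and no probe lay beyond the lower line.

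Ramp2, which turns the receptor toward adrenomedullin, was read well above background in both pools on both arrays by its single probe, A_51_P277536. It read 297.5 over 26 in the transgenic pool on array 1, against 578 over 116 in the wild type pool, and 188 over 126 in the transgenic pool on array 2, against 402 over 23.5 in the wild type pool. Its log2 ratio was -0.37 and -0.11 on arrays 1 and 2, a mean of -0.24 ± 0.18, and did not pass the rule. Both ratios were slightly below 0, and their difference from 0 was no larger than the typical disagreement between arrays, a median of 0.40 over detected genes. Across the 10434 detected genes, which share pools, slide and exchanged dyes, the ratios of the 2 arrays had a Pearson correlation of -0.03 and a Spearman correlation of -0.12. In the authors' deposited table Ramp2 stood at -0.25 and -0.57.

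Ramp3, the other adrenomedullin-directing subunit, was near background. Its probe, A_51_P227090, read 51 over 27 in the transgenic pool on array 1, against 154 over 113.5 in the wild type pool, and 150 over 123 in the transgenic pool on array 2, against 65 over 25 in the wild type pool. Each pool was well above background only where it carried Cy3. The log2 ratios of -0.18 and 0.45 differed in sign, so no direction can be given.

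Calcrl, the receptor that all 3 RAMPs escort, was dim. Its brighter probe, A_51_P225186, read 61 over 25 in the transgenic pool on array 1, against 193 over 118 in the wild type pool. On array 2 it read 126.5 over 119 in the transgenic pool, which is not well above background, against 83.5 over 27 in the wild type pool. Its log2 ratio was -0.39 and -0.18, a mean of -0.28 ± 0.15, short of the rule on both arrays. The size of this difference depended on the handling of background. It was -0.56 and -0.31 with an offset of 16, and by scanner log ratio -0.58 and -1.70, where array 1 fell just short of 1.5-fold. All 8 settings that gave Calcrl a value over both arrays put it below 0 and none passed the rule. The mean over detected probes and no detection filter keep the same probe, so they could not change its value. Every setting reworks the same spots, and the probe was detected through the wild type pool only, where it read higher. The shared sign is therefore no separate support for a direction. The other Calcrl probe, A_52_P58949, was not well above background in either pool, at 33 over 25.5 and 117 over 117 in the transgenic pool on arrays 1 and 2, against 127 over 116 and 32 over 24 in the wild type pool. The loess ratios of -0.39 and -0.18 differed from 0 by less than the median disagreement between arrays over detected genes, 0.40. A lower level of Calcrl is therefore not settled. Calcrl is known from endothelium, and in pooled tissue the number of cells of a type and the RNA per cell cannot be told apart.

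Crcp, an intracellular protein that helps couple the receptor to its G protein and is also a subunit of RNA polymerase III, was nearly even between the pools. Its probe, A_51_P274039, read 197.5 over 25 in the transgenic pool on array 1, against 376 over 124 in the wild type pool. On array 2 it read 190 over 142 in the transgenic pool, against 314 over 23 in the wild type pool. The log2 ratio was -0.18 and -0.09, a mean of -0.13 ± 0.06, and 88.7% of detected genes disagreed more between the arrays. The same share was 27.4% for the brighter Ramp1 probe. The closeness of the arrays for Crcp depended on the processing. Without background subtraction Crcp was at -0.15 and 0.13, and with median centring at -0.20 and -1.22. The scanner software gave -0.09 and -0.07.

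Among the ligand genes Adm, which encodes adrenomedullin, was the only one detected, by probe A_51_P265571. It read 155 over 24 in the transgenic pool on array 1, against 292 over 119 in the wild type pool, and 154.5 over 130 in the transgenic pool on array 2, against 217 over 28 in the wild type pool. Its log2 ratio was -0.07 and -0.22, a mean of -0.14 ± 0.11, and did not pass the rule. By scanner log ratio it was -0.69 and 1.43, past 1.5-fold on each array and in opposite directions, and the deposited table had -0.70 and 1.40. In both the transgenic over wild type ratio followed the dye, with the pool labelled by Cy5 the higher one, so the direction of Adm is not settled by these arrays.

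Calca, whose transcripts are spliced to calcitonin or alpha-CGRP, and Calcb, which encodes beta-CGRP, were not well above background in either pool on either array. The Calca probe A_51_P290826 read 40 over 27 and 134 over 127 in the transgenic pool on arrays 1 and 2, against 139.5 over 121 and 38 over 24 in the wild type pool. The Calca probe A_52_P154101 read 32 over 27 and 132 over 131 in the transgenic pool, against 125 over 117 and 31 over 24.5 in the wild type pool. The Calcb probe A_51_P406157 read 33 over 24 and 140 over 124 in the transgenic pool, against 127 over 128 and 32.5 over 25 in the wild type pool. No fold is given for these genes. As background, CGRP of sensory fibres is made in nerve cell bodies that lie outside the gland.

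**Figure D3:**
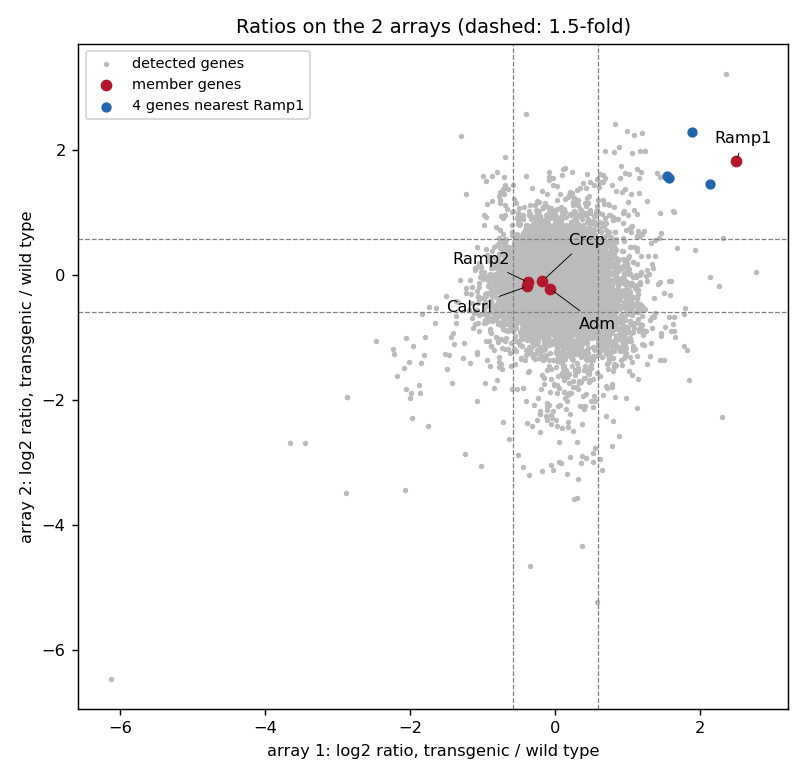
Log2 ratio, transgenic over wild type, on array 1 (horizontal) and array 2 (vertical) for the 10434 detected genes (grey), the 5 detected members (red) and the 4 genes nearest to Ramp1 (blue), with dashed lines at 1.5-fold. Ramp1 lies at 2.50 and 1.83 in the upper right, and Ramp2, Calcrl, Crcp and Adm lie within the central cloud, whose ratios had a Pearson correlation of -0.03 between the arrays.

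The genes whose ratios on the 2 arrays lay closest to those of Ramp1 were found by Euclidean distance over the 2 arrays. They were Scgb2b27, a secretoglobin (2.13 and 1.46, distance 0.52), the lipase-related gene Pnliprp1 (1.89 and 2.30, distance 0.77), the chaperone gene Hspa4 (1.57 and 1.56, distance 0.97) and the ribonuclease gene Ear1 (1.54 and 1.59, distance 0.99). With the mean over detected probes the call of Hspa4 ended (0.69), because its other probes had means of 0.20 and 0.31. Scgb2b27 had another detected probe, at 2.10 and 0.87. It was dim, without a value when detection was required in both pools or in the deposited table. By scanner log ratio it was 5.75 and 4.04, so the size of its ratio is not settled. With median centring the calls of Pnliprp1 (1.11), Hspa4 (0.82) and Ear1 (0.94) ended, as that of Ramp1 did, and Scgb2b27 (1.59) stayed called.

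The lists of genes around the receptor and its ligands that follow, like the members, were drawn up with earlier results of these data known. Across 10 lists of pathway genes, 126 of 133 listed genes were on the array by accession and 83 were detected. Of the 83, 1 was higher, 1 was lower and 81 were neither. The share called was 2.41%, near the 2.21% of all detected genes and so no result about these lists. The median ratio of all detected genes was -0.06.

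Of the Gs, adenylyl cyclase and protein kinase A list, 16 of 23 genes were detected, with a median of -0.11, and 1 was higher, 0 lower and 15 neither. Gnai1, an inhibitory G protein subunit, was the higher one at 0.90 and 1.55 (mean 1.22 ± 0.47). Its other detected probes did not share this ratio, with means of 0.32, -0.0033 and -0.14, and the call ended with the mean over detected probes (0.35) and with median centring (0.40). Gnas, the stimulatory subunit, was at -0.97 and -0.43, the catalytic subunit gene Prkacb at 1.13 and 0.39, and the anchoring protein gene Akap13 at 0.38 and -1.20. None of these 3 passed on both arrays.

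None of 6 detected cAMP phosphodiesterases passed the rule (median -0.14). Pde4d was at 0.42 and 0.51, Pde8b at -0.31 and -0.29, and Pde4b at -0.27 and -0.08. None of 14 detected CREB family and cAMP-induced genes passed it either, and 11 of these means were above 0 and 3 below, with a median of 0.13 that was -0.03 and 0.21 on arrays 1 and 2. Rgs2, a regulator of G protein signalling, came closest at -0.61 and -0.58, just short of 1.5-fold on array 2. Nr4a1, an immediate early gene induced by cAMP, was at -0.28 and -0.54, and the coactivator gene Crtc3 was at 0.16 and 0.26.

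Of 10 detected genes for receptor desensitisation and trafficking, 0 passed the rule (median -0.14). The beta-arrestin gene Arrb1 was at 0.24 and -1.10, Rab5a at -0.29 and -0.40, and the receptor kinase gene Grk6 at -0.25 and -0.35. Of 10 detected genes for maturation, clearance and scavenging of the peptides, 0 passed it, with a median of -0.20 and 9 means below 0. Cpe, a carboxypeptidase of prohormone processing, was at -1.06 and -0.35. Mme, encoding neprilysin, which degrades such peptides, was at 0.78 and -1.78, opposite in sign on the arrays. Pam, the enzyme that amidates CGRP and adrenomedullin, was at -0.49 and -0.21.

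Of the other calcitonin family genes, Adm2 and Calcr were not detected, and Iapp was matched to no probe by accession and was not measured. Among further receptors that pair with RAMPs, 2 of the 11 on the array by accession were detected, Vipr1 at 0.18 and 0.32 and Gper1 at -0.11 and -0.30. Gcgr was matched to no probe and was not measured. Of 4 detected neuropeptide genes other than CGRP, 0 passed the rule, with Vip at -0.32 and -0.44, Penk at -0.22 and -0.20, Gal at -0.30 and 0.53, and a median of -0.11. Of 10 detected RNA polymerase III subunits and partners of Crcp, 0 passed it (median -0.01), with Polr3e at 0.71 and 0.21, Polr3g at 0.35 and 0.44 and Polr3b at -0.36 and -0.19. Of 11 detected hypoxia-responsive genes, a class to which Adm belongs, with a median of -0.18, 1 was lower and 10 neither. The lower gene was Bnip3, of mitochondrial turnover, at -0.64 and -0.88, with the transgenic reading clear of background on 1 array only. Ndrg1 was at -0.53 and -0.75 and Epas1 at -0.58 and -0.28.

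**Figure D4:**
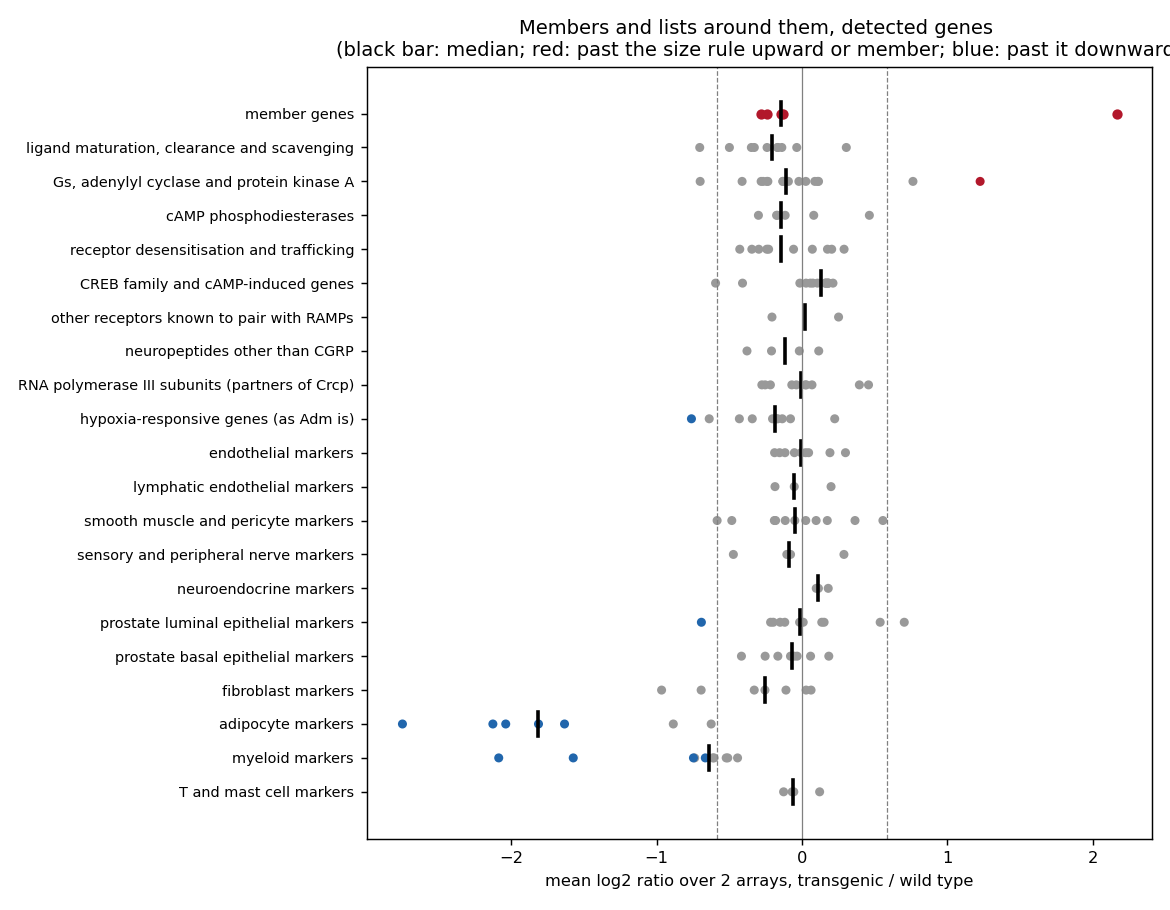
Mean log2 ratio over both arrays, transgenic over wild type, of each detected gene (points) in the member set and in the lists around it, with the list median as a black bar and dashed lines at 1.5-fold. Among pathway lists red marks Gnai1 and blue marks Bnip3, the genes past the rule on each array. Adipocyte and myeloid markers lay to the left, with medians of -1.81 and -0.64.

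Markers of the cells in which these genes are known to act were compared between the pools. Of 9 detected endothelial markers, 0 passed the rule and the median was -0.01, with Robo4 at 0.63 and -0.04 and Pecam1 at 0.43 and -0.04. Only 22.2% of the 9 were well above background in both pools on both arrays, and the offset pulls dim ratios toward 0. By scanner log ratio the median was -0.18, so an even endothelial content is not shown. The summed level of the endothelial markers was 1383 and 1333 in the transgenic pool on arrays 1 and 2, against 1315 and 1418 in the wild type pool. Kdr, Tek and Tie1 were not detected. The endothelial sum was higher in the transgenic pool on array 1 and lower on array 2. Its relation to the ratios of Calcrl and Ramp2 was not tested. Of 3 detected lymphatic endothelial markers 0 passed (median -0.05), and of 11 detected smooth muscle and pericyte markers 0 passed (median -0.05). The smooth muscle sum was 41530 and 22376 in the transgenic pool, against 30774 and 32749 in the wild type pool, so it was higher in the transgenic pool on array 1 and lower on array 2.

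Nerve markers were mostly not detected, with 4 detected of the 13 on the array by accession, 0 past the rule and a median of -0.09. Trpv1, also listed, was matched to no probe and was not measured. Nefl was at -0.35 and -0.59 and S100b at 0.10 and 0.48, while Prph, Nefm, Nefh and Scn10a were among those not detected. Of 8 neuroendocrine markers 3 were detected and 0 passed (median 0.11), and Chga, Chgb, Syp and Insm1 were among those not detected.

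The labelled tissue had its epithelial markers, with 12 of 12 luminal and 8 of 8 basal markers detected. Luminal markers had a median of -0.01, with 0 higher and 1 lower, the homeobox gene Hoxb13 at -0.71 and -0.67. Their summed level was 268978 and 466001 in the transgenic pool on arrays 1 and 2, against 266561 and 223738 in the wild type pool. The sums were close on array 1 and far apart on array 2, so an even luminal content is not shown. Tgm4 was at 0.25 and 1.16 and Pbsn at -0.32 and 1.39. Basal markers had a median of -0.07 and 0 past the rule, with Krt15 at -0.58 and -0.25.

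Adipocyte and myeloid markers were lower in the transgenic pool while Ramp1 was higher. Of 78 detected genes over all marker lists, 0 were higher and 10 lower, a share called of 12.8%. Among all detected genes 2.21% were called, 1.30% of them lower and 0.910% higher. The marker lists were drawn up with earlier results of these data known. Of 7 detected adipocyte markers 5 were lower (Cfd, Fabp4, Car3, Adipoq and Cidec) and 2 neither, and their summed level was 2432 and 1954 in the transgenic pool on arrays 1 and 2, against 7998 and 9036 in the wild type pool. Of 10 detected myeloid markers 4 were lower (Mrc1, C1qc, Lyz1 and Cd74) and 6 neither, with sums of 1662 and 1926 in the transgenic pool, against 3600 and 5076 in the wild type pool. Fibroblast markers (7 detected, 0 past the rule) had medians of -0.05 and -1.08 on arrays 1 and 2, and T and mast cell markers (4 detected, 0 past the rule) had a median of -0.06. Of the called markers, Cfd, Car3, Adipoq, Lyz1 and Mrc1 read clear of background in the transgenic pool on 1 array only, and so were detected through the wild type pool, where they are high. With detection required in both pools, 5 marker genes over all marker lists were called in place of 10. C1qc was not called by scanner log ratio (-0.58), when arrays were scaled to each other (-0.76) or in the authors' deposited table (-0.59). Mrc1 was not called without background subtraction (-0.51) or when arrays were scaled to each other (-0.67). The part of any of these markers in the ratio of Ramp1, Calcrl or Ramp2 was not tested.

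**Figure D5:**
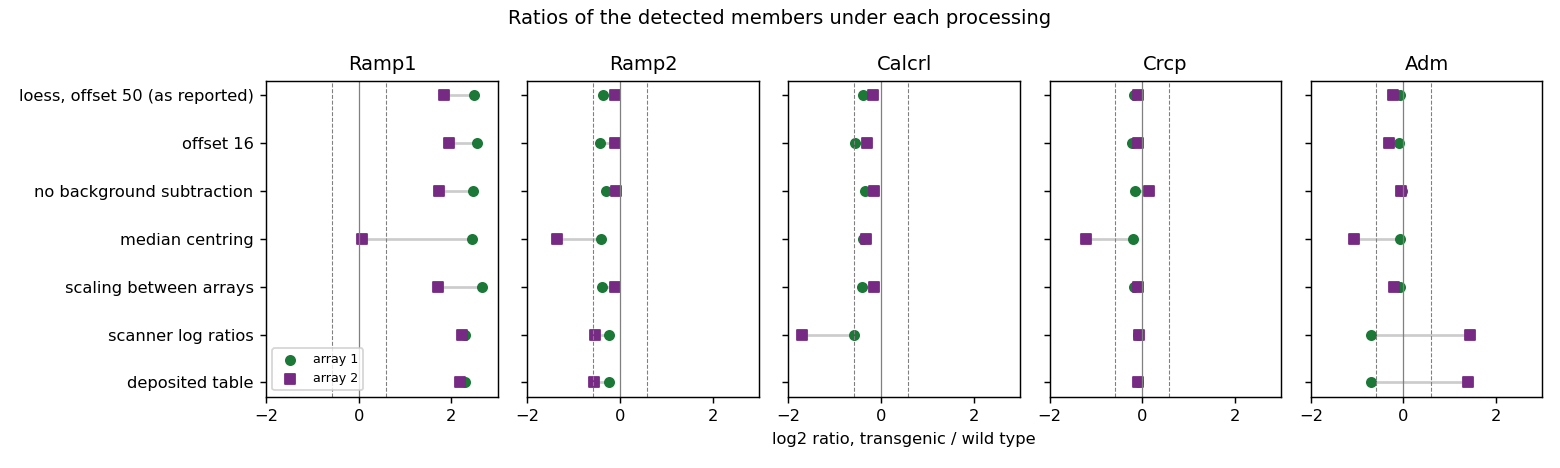
Log2 ratio, transgenic over wild type, of the 5 detected members on array 1 (green circles) and array 2 (purple squares) under 7 ways of processing, with dashed lines at 1.5-fold. Ramp1 stays above the upper line on both arrays except with median centring, where array 2 gave 0.08, and Adm has opposite signs on the arrays with the scanner log ratios and in the deposited table, which lists no value for Calcrl.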

How the data were processed

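Pooled RNA was amplified, dye-labelled and hybridised to Agilent arrays, per the labels' protocols. Per the file headers, scans were read with Feature Extraction 11.0.1.1. Deposited spot and background signals are raw medians of pixel intensities. The scanner software also wrote a background-subtracted, dye-normalized ratio of Cy5 to Cy3, deposited on the log10 scale, per the file headers. A table of log2 values deposited by the authors matched the scanner log ratio of transgenic over wild type with r and slope of 1 over 8498 probes on each array (column medians -0.00013 and -0.00064, so its centring is close to 0). How its probes were filtered is not stated in the sources.

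Direction was taken from the labelled dyes. Median signals were corrected by normexp (offset 50) and loess-normalized within arrays with control and outlier spots at weight 0, in limma 3.58.1 under R 4.3.3. Per-pool levels are after a further quantile normalization of mean intensity between arrays. Outlier spots (157 and 177 of 43379) were left out, no spot was saturated, and each member probe had 1 spot. Among 245 probes printed 10 times the median SD of the log2 ratio was 0.17 and 0.23 on arrays 1 and 2. Probes were named through a RefSeq table of GRCm38.p6 (27816 of 41174 matched). The number of arrays limits the precision. Only a size rule was used, without p-values.

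The members and the 21 gene lists were chosen with earlier results of these data known. Named genes were the members, the 4 genes nearest to Ramp1, every list gene past the rule and up to 3 others per list by absolute mean ratio, of which not all are printed. Some list genes are counted but not reported here by name. Alternatives were offset 16, no background subtraction, median centring, scaling between arrays, the scanner log ratios, the deposited table, other detection and probe rules, a 2-fold rule and each array alone. Tables and figures were made with pandas 2.3.3, numpy 2.4.6 and matplotlib 3.10.9.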

Additional observations from a re-analysis of the deposited data

How the results depend on the processing

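The ratio of Ramp1 stayed above 0 and past 1.5-fold on each array in 9 of 10 settings over both arrays, from 2.11 to 2.26. It was 1.26 with median centring, where 0 members were called. On single arrays it was 1.83 and 2.50. The mean over detected probes, detection in both pools and no detection filter keep the same Ramp1 probe, so they could not change its value of 2.16. The deposited table repeats the scanner log ratio, so the count of settings overstates how far the ratio was checked. Of the 5 detected members and the 16 other genes followed by name, no called one reversed in a setting that gave it a value, and the other called genes were not followed singly. Ramp2 ranged from -0.88 to -0.20, Calcrl from -1.14 to -0.26, Crcp from -0.71 to -0.01 and Adm from -0.57 to 0.37, and none of them was called in any setting over both arrays. The cause of these shifts was not tested. Counts over all detected genes (95 higher and 136 lower) were 149 and 240 with an offset of 16, and 2 and 554 with median centring. In the authors' deposited table, which covers 6127 of these genes, 178 were higher, and with detection in both pools 76 were lower. The counts were 247 and 628 by scanner log ratio, and 25 and 37 with the 2-fold rule. On single arrays they were 544 to 845 higher and 558 to 1570 lower, where fewer arrays had to pass. The 2 called pathway genes became 7 with median centring, 10 by scanner log ratio, 4 in the authors' deposited table, 1 with the mean over probes, 1 with detection in both pools, 0 with the 2-fold rule and 12 on each single array. The 10 called marker genes became 16 with median centring, 18 by scanner log ratio, 5 with detection in both pools, and 19 to 24 on single arrays. The medians of adipocyte (-2.51 to -1.62) and myeloid markers (-1.61 to -0.49) were below 0 in every setting over both arrays. Of the remaining values, 285 moved by no more than the spread over arrays and 114 by more. The weak Cy5 channel of array 2 (transgenic pool, median net 10, against 26.5 for the wild type pool in Cy3) limits Calcrl, whose transgenic reading was not well above background there. Ramp3 was not well above background in Cy5 on either array, and Calca and Calcb in neither dye. No paired analysis was possible because both arrays hold the same pair of pools and no test was made.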
